A study of Mus musculus with 32 samples.

Results

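LSK cells, the lineage-negative, Sca-1-positive, Kit-positive gate of mouse bone marrow that holds stem and early progenitor cells, were compared between mice given the combination of Lys05 and AC220 and mice given AC220 alone. The comparison uses the 8 libraries that the labels call LSK with treatment Combination (4 libraries) or AC220 (4 libraries), of 32 in the series. All animals were C57BL/6 mice with a FLT3-ITD transgene, so both groups carry the activated receptor and both received AC220, and what separates them is Lys05. The labels give no dose, time, age or sex, no batch and no promoter for the transgene, and they call the 4 libraries of a group biological replicates. RNA of the sorted cells was sequenced after full-length amplification from low input, and the values are counts per gene, given here as CPM, the count of a gene scaled to the size of its library.

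FLT3 is a receptor tyrosine kinase of early blood progenitors, and an internal tandem duplication keeps it active without ligand in many acute myeloid leukemias. AC220 (quizartinib) blocks its kinase. Lys05 is a dimeric relative of chloroquine that gathers in lysosomes, raises their pH and stops the last step of autophagy, in which lysosomal enzymes break down the cargo of autophagosomes. Lysosomes also load peptides onto MHC class II molecules, supply cholesterol from lipoproteins and hold the machinery through which mTORC1 senses amino acids. The comparison asks what a lysosomal inhibitor adds in LSK cells whose FLT3 is already inhibited.

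The libraries held 36.4 to 55.9 M gene counts each. AC220 library 1 and combination library 1 stood apart from their groups: their mean correlation with the other libraries of the group was 0.956 and 0.967, against 0.974 to 0.979 and 0.978 to 0.982 for the others. Combination library 1 also had 24.0% of its reads outside named features, against 15.2% to 18.2% in the other 7 libraries. Results are therefore also given without these 2 libraries, a choice made after seeing the data. The gate was visible in the RNA, with Kit at 140 to 229 CPM, Cd34 at 607 to 932 and Ly6a, the gene of Sca-1, at 74.5 to 210, while the lineage genes Cd3e and Ms4a1 stayed at or under 1.01 CPM in every library. Ly6g, a neutrophil gene, was at 3.56 to 17.4 CPM.

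Of 14884 genes tested, 2 passed an adjusted p of 0.05 in the edgeR quasi-likelihood fit of the 8 libraries (0.0134%), and both fell with the combination. They were H2-Ob, a chain of the class II peptide-loading modulator H2-O, and Aldoc, the glycolytic enzyme aldolase C. At an unadjusted p under 0.05 there were 2914 genes, 1238 higher and 1676 lower, and 318 genes had an adjusted p under 0.1, of which 182 were higher. The count depended on the model. DESeq2 called 1104 genes (509 higher, 595 lower), limma voom with library weights 1308 (671 higher, 637 lower) and a fit of all 16 LSK libraries 56 (54 higher, 2 lower), while leaving out the first library of each group gave 703 (383 higher, 320 lower). A second description that needs no model counts genes whose 4 combination libraries all lay above, or all below, the 4 AC220 libraries: 888 genes were higher (5.97%) and 841 lower (5.65%). The counts of each gene group stand against these shares.

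H2-Ob lies on the plus strand of chromosome 17 at 34238903-34254414 of GRCm38. It was at 94.5, 75.7, 83.2 and 100 CPM in the AC220 libraries and at 28.0, 34.0, 28.6 and 44.7 CPM in the combination libraries. The groups did not overlap, and the lowest AC220 library was well above the highest combination library. The mean fell from 88.4 ± 10.9 to 33.8 ± 7.74 CPM (SD, n = 4 each), a log2 fold change of -1.38 ± 0.16 (standard error, here and at the later values after a log2 fold change) with an adjusted p of 0.0448. Aldoc, on the plus strand of chromosome 11 at 78322968-78327781, was at 45.5, 63.6, 50.5 and 46.9 CPM with AC220 and at 23.6, 24.6, 25.9 and 24.4 CPM with the combination. The 4 combination libraries were nearly alike and lay far below the lowest AC220 library. Its mean fell from 51.6 ± 8.28 to 24.6 ± 0.988 CPM (SD, n = 4 each), a log2 fold change of -1.07 ± 0.12 with an adjusted p of 0.0448. Both genes were also called by the fit of 16 libraries (adjusted p = 0.0497 for H2-Ob and 0.0373 for Aldoc) and without the first library of each group (0.00996 and 0.00266). With 7 libraries, both calls held without AC220 library 1 or combination library 1 and both were lost without AC220 library 2, 3 or 4 or combination library 2 or 3. Without combination library 4, Aldoc was lost (adjusted p = 0.082) and H2-Ob kept (0.0154). The adjusted p over these 8 fits ran from 0.0154 to 0.299 for H2-Ob and from 0.02 to 0.299 for Aldoc, and the log2 fold change of Aldoc from -1.12 to -0.94.

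**Figure D1:**
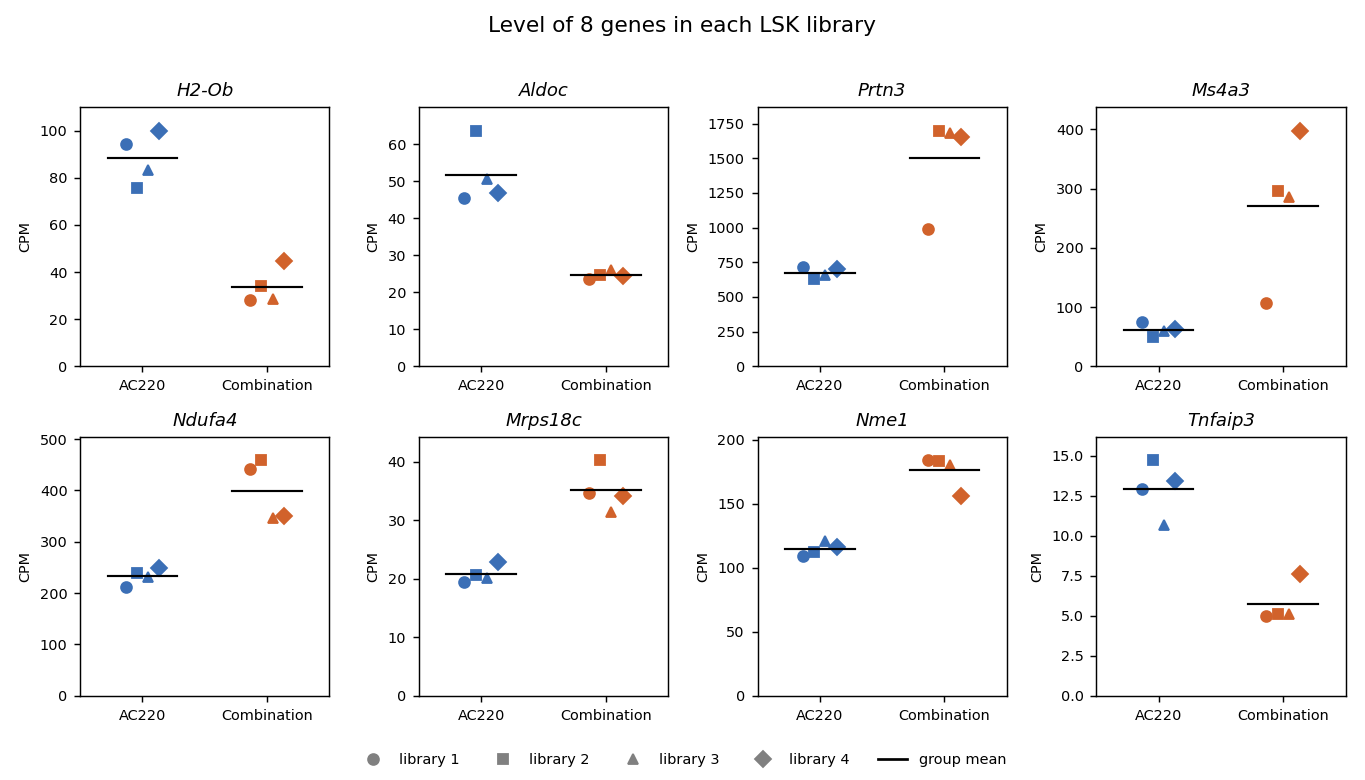
CPM (linear axis from 0) of 8 genes in the 4 AC220 and 4 combination LSK libraries. Each point is a library, marked by its number within the group, and the black line is the group mean. The groups do not overlap for any of the 8, and combination library 1 lies nearest to the AC220 group for Prtn3 and Ms4a3.

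The promoters of H2-Ob, of its partner H2-Oa and of the granule genes Prtn3, Mpo and Ms4a3 are shown because H2-Ob was called and the others are described beside it and in the granule group below, Mpo with groups that overlapped. They are RefSeq sequences of GRCm38.p6, from 250 bases before to 50 after the listed start, written 5′ to 3′ on the strand of the gene, and 68 of the 84 genes followed had such an entry. Capitals mark matches to letters searched on both strands: CTGATTGG, the Y box of class II promoters, GAGGAAGT, a core bound by the myeloid factor PU.1, and TTGCNNAA, a core bound by C/EBP factors. No capital overlaps another.
H2-Ob: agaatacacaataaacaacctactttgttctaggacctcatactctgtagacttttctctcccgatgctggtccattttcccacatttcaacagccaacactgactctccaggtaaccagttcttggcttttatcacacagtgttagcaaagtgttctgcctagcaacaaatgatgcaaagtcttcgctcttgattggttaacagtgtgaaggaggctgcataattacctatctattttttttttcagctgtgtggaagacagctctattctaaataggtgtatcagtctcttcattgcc
H2-Oa: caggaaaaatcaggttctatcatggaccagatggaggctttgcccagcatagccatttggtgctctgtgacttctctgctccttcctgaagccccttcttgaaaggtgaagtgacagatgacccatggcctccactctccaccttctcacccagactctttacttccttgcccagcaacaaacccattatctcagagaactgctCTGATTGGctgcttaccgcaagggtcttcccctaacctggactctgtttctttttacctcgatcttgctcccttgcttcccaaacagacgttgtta
Prtn3: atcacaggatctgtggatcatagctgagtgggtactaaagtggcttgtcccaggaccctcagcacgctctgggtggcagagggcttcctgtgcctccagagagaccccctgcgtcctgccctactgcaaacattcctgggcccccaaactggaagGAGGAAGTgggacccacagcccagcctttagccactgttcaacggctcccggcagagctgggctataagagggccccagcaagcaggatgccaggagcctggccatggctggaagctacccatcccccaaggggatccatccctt
Mpo: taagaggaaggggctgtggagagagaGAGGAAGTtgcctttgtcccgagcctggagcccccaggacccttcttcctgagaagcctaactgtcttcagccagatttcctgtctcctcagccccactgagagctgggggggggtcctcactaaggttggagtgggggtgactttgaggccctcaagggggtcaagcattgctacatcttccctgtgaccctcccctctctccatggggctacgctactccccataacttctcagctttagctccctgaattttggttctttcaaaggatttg
Ms4a3: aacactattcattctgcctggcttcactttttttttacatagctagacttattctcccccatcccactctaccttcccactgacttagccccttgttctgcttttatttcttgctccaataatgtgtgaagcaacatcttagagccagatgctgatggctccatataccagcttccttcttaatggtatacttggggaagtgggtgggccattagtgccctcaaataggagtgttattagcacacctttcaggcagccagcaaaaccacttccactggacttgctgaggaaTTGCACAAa
The 5 windows are chr17:34238655-34238954 (plus strand), chr17:34092129-34092428 (plus), chr10:79879417-79879716 (plus), chr11:87793534-87793833 (plus) and chr19:11640802-11641101 (minus). The H2-Oa window held the Y box letters, which 4.31% of all 27025 promoters and 3 of the 10 class II promoters with an entry also held. The H2-Ob window had no capital. Only exact matches were marked, and that window holds ttgattgg, which differs from the Y box letters in its first base. A missing capital therefore does not mean that a gene lacks a Y box. The PU.1 core was in the windows of Prtn3 and Mpo, in 3 of 16 primary granule promoters and in 3.28% of all promoters, and the window of the granule gene Ctsg, not printed, held none of these letters. The C/EBP core was in the Ms4a3 window, in 4 of 16 primary granule promoters and in 10.8% of all promoters. These matches describe the letters of the windows and were not tested.

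MHC class II molecules present peptides that were cut in lysosomes, and H2-O restrains the exchange factor that loads them. All 14 tested class II genes had negative log2 fold changes, with a median of -1.24 against -0.01 over all genes tested. H2-Ob was the only member called by edgeR, and 2 of the 14 (14.3%, against 5.65% of all genes) had lower values in every combination library than in any AC220 library. The second was H2-Oa, the other chain of H2-O, at 72.7, 39.4, 34.9 and 63.6 CPM with AC220 and 20.4, 28.1, 22.9 and 33.2 CPM with the combination (-1.01 ± 0.25; adjusted p = 0.1 in edgeR, 0.00405 in DESeq2 and 0.047 in limma voom). The summed level of the list was 29900, 7920, 7000 and 19000 CPM in the AC220 libraries and 1320, 4220, 4110 and 8610 CPM in the combination libraries. The AC220 group spread widely, and combination library 4 lay above AC220 libraries 2 and 3. H2-Oa ranked the libraries of each group in the order of these sums, and H2-Ob those of the combination group, with 44.7 CPM in combination library 4 against 75.7 and 83.2 in AC220 libraries 2 and 3. Without the first library of each group the list's median was -0.80.

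Markers of dendritic cells, which present antigen on class II and can arise from FLT3-dependent progenitors, had the same direction as the class II genes. All 17 tested members of that list had negative log2 fold changes (median -2.12, and -1.32 without the first library of each group), and 3 were lower without overlap (17.6%). Its summed level was 1920, 577, 490 and 1190 CPM with AC220 and 170, 300, 349 and 513 CPM with the combination, so that combination library 4 lay above AC220 library 3. Itgae, the integrin chain CD103 of a dendritic subset, was at 229, 45.8, 30.7 and 127 CPM with AC220 and at 2.52, 11.9, 9.38 and 25.5 with the combination (-3.13 ± 0.81, adjusted p = 0.117). Every AC220 library exceeded every combination library, but AC220 libraries 1 and 4 were well above AC220 libraries 2 and 3. The lectin receptor Cd209a (26.1 ± 16.5 against 5.21 ± 3.41 CPM), the co-stimulatory ligand Cd86 (21.1 ± 11.3 against 6.94 ± 2.74) and the chemokine receptor Ccr7 (13.9 ± 8.02 against 4.51 ± 2.27) had the same direction, and none was called by edgeR (adjusted p = 0.115 to 0.13). In DESeq2 their adjusted p was 0.0178, 0.00248 and 0.00632, and in limma voom 0.0512, 0.0565 and 0.0387. In edgeR without the first library of each group it was 0.229, 0.183 and 0.0862, and no tested member of the list was called there. In sorted populations measured in bulk, fewer cells of a type and less RNA per cell cannot be told apart, here and in every group that follows. The defining markers were not at 0: Itgax was at 14.9 to 53.9 CPM with AC220 and 1.14 to 14.2 with the combination, and Siglech at 5.12 to 13.7 and 1.11 to 6.7. The part of dendritic cell RNA in the class II difference was not tested.

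**Figure D2:**
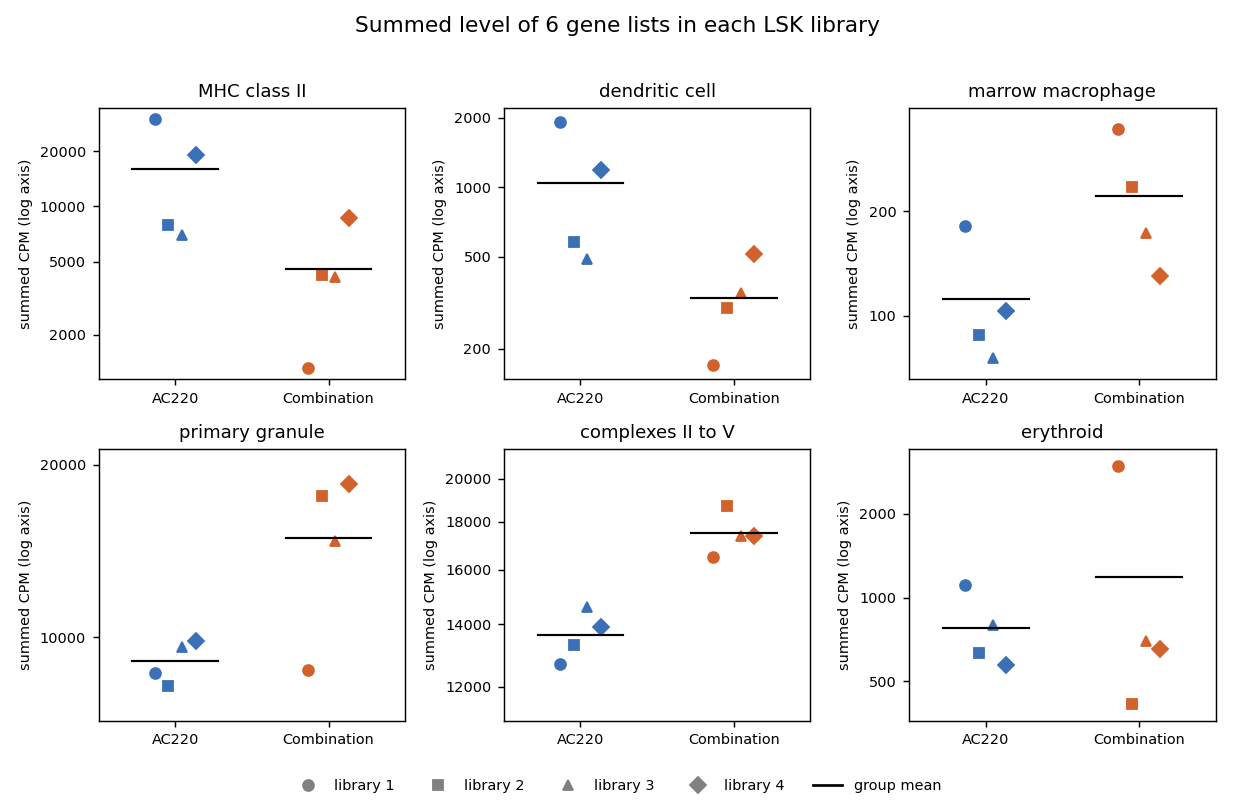
Summed CPM (log axis) of 6 gene lists in each library, with points marked by library number and a black line for the group mean. Class II and dendritic cell sums order the AC220 libraries alike, combination library 1 has the lowest of both and the highest erythroid sum, and the nuclear genes of respiratory complexes II to V separate the groups.

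Genes of primary granules, the protease-filled granules made in granulocyte-macrophage progenitors, were higher with the combination, most in 3 of its 4 libraries. Prtn3, the granule protease proteinase 3, was at 714, 631, 661 and 698 CPM with AC220 and at 990, 1700, 1680 and 1654 CPM with the combination. The groups did not overlap, and combination library 1 was far below the other 3. The means were 676 ± 37.5 and 1506 ± 344 CPM (SD, n = 4 each; 1.16 ± 0.17, adjusted p = 0.0877). Ms4a3, a membrane protein that marks granulocyte-macrophage progenitors and their offspring, was at 74.3, 49.4, 60.5 and 62.9 CPM with AC220 and at 106, 296, 285 and 398 CPM with the combination (2.13 ± 0.34, adjusted p = 0.0877). Again combination library 1 was nearest to the AC220 group. Hp, the haptoglobin gene, went from 63.3 ± 7.89 to 163 ± 61.4 CPM without overlap (adjusted p = 0.0889), with 72.4 CPM in combination library 1 and 68.4 in the highest AC220 library.

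The myeloid peroxidase Mpo was at 2670, 2109, 2339 and 2912 CPM with AC220 and at 1943, 6093, 4898 and 6563 CPM with the combination, which made the groups overlap through combination library 1 (adjusted p = 0.154). Cathepsin G (Ctsg) had the same shape, from 722 ± 128 to 1469 ± 493 CPM (adjusted p = 0.099). Over the list, 15 of 18 tested genes were positive (median 0.51) and 3 were higher without overlap (16.7%, against 5.97% of all genes). Without the first library of each group, 9 of 18 were called higher, where 2.55% of all genes were, with Prtn3, Ms4a3 and Hp at an adjusted p of 5.9e-05. In the fit of 16 libraries Ms4a3 (adjusted p = 0.0192) and Prtn3 (0.0373) were called, 2 of the list's 18, where 0.343% of all genes were called higher. The later neutrophil granule list had a median of 0.05 and no member higher without overlap, and the monocyte list a median of -0.09 with none in either direction.

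Of the 51 lists, the 3 with the largest shares of members higher without overlap encode mitochondrial proteins. The respiratory chain passes electrons from NADH and succinate through complexes I to IV, and complex V makes ATP from the gradient they build. Of the 40 tested nuclear genes of complexes II to V, all 40 were positive and 29 had no overlap (72.5%, against 5.97%), with a median log2 fold change of 0.45. Of the 35 tested nuclear genes of complex I, all 35 were positive and 25 had no overlap (71.4%), with a median of 0.43. Of the 74 tested genes of the mitochondrial ribosome, which translates the mitochondrial genome, all 74 were positive and 45 had no overlap (60.8%), with a median of 0.36. No member of the 3 lists had lower values without overlap, and none was called by edgeR in the fit of 8 libraries, where many genes shared an adjusted p of 0.0877. The fit of 16 libraries called 12, 4 and 4 of them higher, where 0.343% of all genes were. The 6 libraries without the first of each group gave 24, 14 and 21, where 2.55% of all genes were called higher.

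Ndufa4, a subunit of cytochrome c oxidase, was at 213, 239, 231 and 249 CPM with AC220 and at 441, 459, 346 and 349 CPM with the combination. The lowest combination library exceeded the highest AC220 library by a wide margin, and the log2 fold change was 0.78 ± 0.12. Uqcrq, a subunit of the cytochrome bc1 complex, was at 271, 222, 262 and 267 CPM with AC220 and at 446, 392, 435 and 352 CPM with the combination (0.67 ± 0.11). Uqcr10 of the same complex (209 ± 10.8 to 305 ± 23.6 CPM) and the ATP synthase protein Atp5mpl (90.3 ± 9.44 to 146 ± 19.1) separated likewise. In complex I, Ndufb9 was at 78.4, 85.6, 81.6 and 83.2 CPM with AC220 and at 119, 114, 114 and 102 CPM with the combination (0.45 ± 0.09). These are narrow groups around a modest shift. Ndufa1 (110 ± 7.75 to 162 ± 15.6 CPM), Ndufa11 (77.2 ± 5.47 to 106 ± 5.1) and Ndufb5 (83.8 ± 4.32 to 115 ± 7.28) had the same direction without overlap.

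In the small mitochondrial ribosomal subunit, Mrps18c was at 19.5, 20.7, 20.1 and 22.8 CPM with AC220 and at 34.6, 40.2, 31.4 and 34.1 CPM with the combination (0.76 ± 0.11). Of the large subunit, Mrpl33 went from 34.7 ± 3.6 to 55.2 ± 5.34 CPM, Mrpl20 from 92.0 ± 5.86 to 125 ± 7.67 and Mrpl22 from 55.7 ± 4.12 to 78.5 ± 7.29, all without overlap. The adjusted p of the 12 mitochondrial genes named here was 0.0877 or 0.0889. The 11 tested genes of the mitochondrial genome itself behaved differently among libraries: their summed level was 3230, 2210, 3140 and 2450 CPM with AC220 and 5720, 4290, 1840 and 3050 CPM with the combination. Their median of 0.42 came with overlap in all 11 genes, and combination library 3 was below every AC220 library. Several of the genes named here overlap another gene, so that reads may be shared or lost: Ndufb5 with Mrpl47, Ndufa11 with Vmac and Mrpl33 with Rbks on the opposite strand, and Mrps18c with Gm43511, Ndufb9 with Gm49356 and Mrpl33 with Gm43809 on their own.

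**Figure D3:**
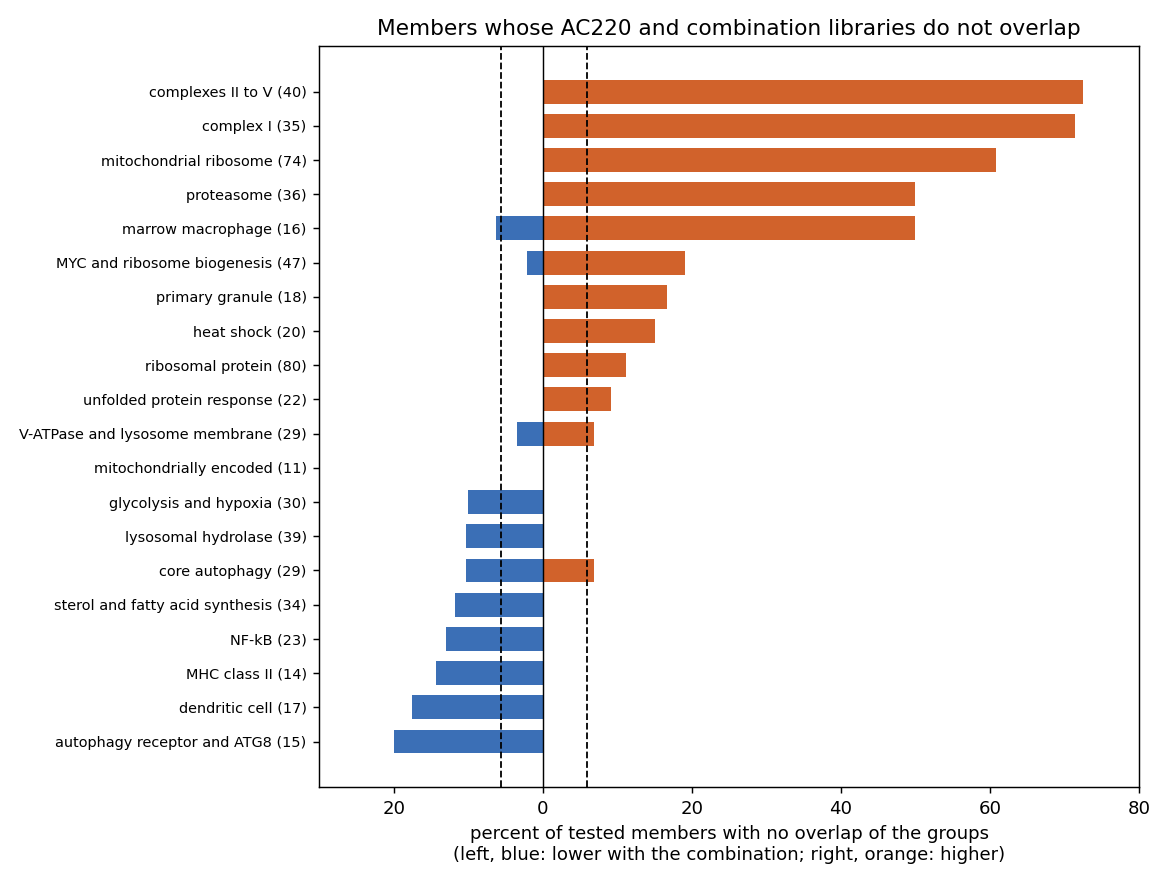
Percent of the tested members of 20 lists (number tested in parentheses) whose 4 combination libraries all lie above (orange, right) or all below (blue, left) the 4 AC220 libraries, with dashed lines at 5.97% and 5.65%, the shares of all genes tested. The mitochondrial lists reach 60.8% to 72.5% on the higher side, and the largest share on the lower side is 20%.

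Most respiratory chain genes have short transcripts, and short genes as a whole were higher with the combination. Over all genes, the median log2 fold change was 0.26 where the longest transcript was under 500 bases, 0.22 from 500 to under 1000, 0.12 from 1000 to under 2000, -0.02 from 2000 to under 4000 and -0.13 from 4000 bases up, and the share higher without overlap was 7.97%, 13.7%, 10.4%, 5.31% and 2.31%. The shares of the mitochondrial lists, whose median longest transcripts were 1005 bases (complex I), 1180 (complexes II to V) and 1866.5 (mitochondrial ribosome), were above the share of every length class. The share of counts on genes with a median transcript under 1000 bases was 56.6%, 57.2%, 58.3% and 57.2% with AC220 and 58.7%, 60.0%, 58.7% and 59.2% with the combination. These did not overlap (difference 1.81 percentage points, exact two-sided permutation p = 0.0286, the smallest that 4 against 4 allow; 0.143 adjusted over 5 library measures). Measured by the longest transcript, the share was 8.37%, 7.43%, 8.11% and 7.99% against 10.6%, 8.88%, 7.89% and 8.05%, with overlap (exact p = 0.257).

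An offset per library was added after seeing the data, for longest transcript length and the median GC content of a gene's transcripts. It brought the 5 length classes to between 0 and 0.09. The medians of the lists were then 0.35 for complexes II to V, 0.32 for complex I and 0.34 for the mitochondrial ribosome, against 0.04 over all genes. The median of the 11 mitochondrially encoded genes was 0.13 with the offset and 0.16 without the first library of each group. Length is thus given beside these lists as a measured companion, and its part in what is left after the offset was not tested.

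**Figure D4:**
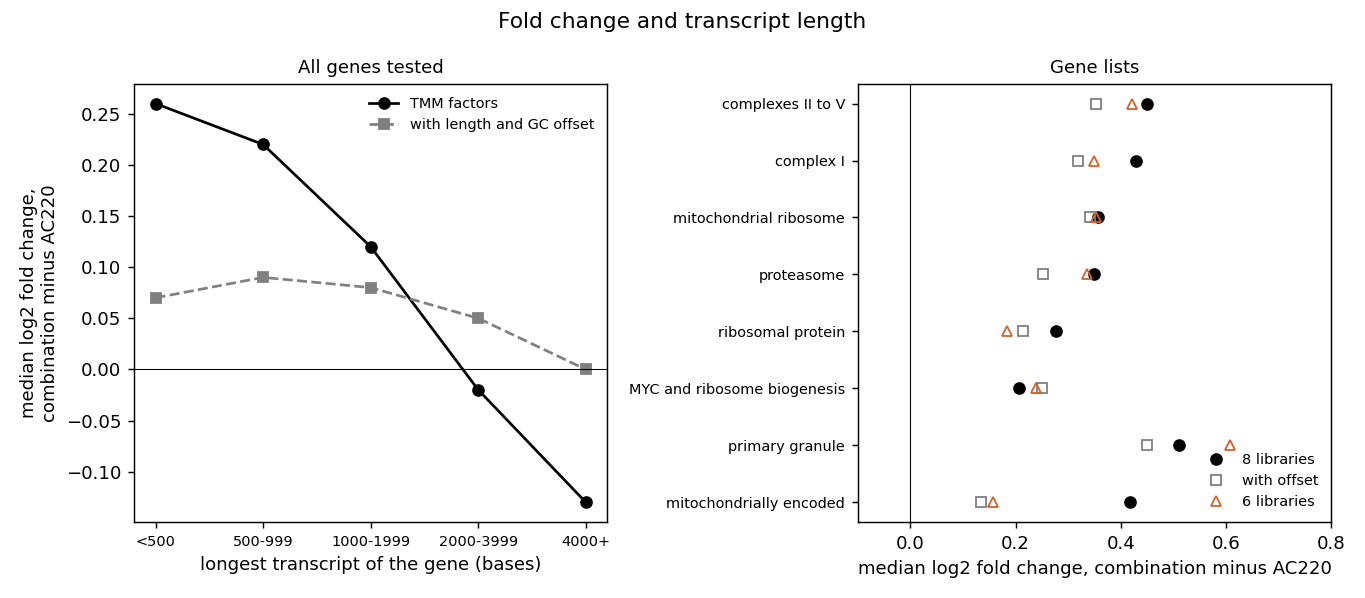
Left, median log2 fold change (combination minus AC220) of all genes by class of longest transcript in bases, with library size scaling alone (circles) and with the length and GC offset (squares). Right, list medians in the 8 libraries, with the offset and in the 6 libraries without the first of each group. The nuclear mitochondrial lists stay between 0.32 and 0.45, and the mitochondrially encoded list goes from 0.42 to 0.13 with the offset.

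The proteasome, which degrades ubiquitin-tagged proteins outside the lysosome, showed a similar picture. All 36 tested genes were positive, 18 had no overlap (50%, all higher) and the median was 0.35, or 0.25 with the offset. Psmg1, an assembly chaperone of its core, was at 99.6, 110, 121 and 112 CPM with AC220 and at 154, 156, 165 and 139 CPM with the combination (0.47 ± 0.1, adjusted p = 0.0888). The core subunit Psma4 went from 193 ± 13.2 to 249 ± 18.5 CPM (adjusted p = 0.108). Without the first library of each group 12 of the 36 were called higher, where 2.55% of all genes were, and in the fit of 16 libraries none.

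Among MYC targets and ribosome biogenesis genes, 36 of 47 were positive (median 0.21), 9 were higher without overlap (19.1%) and 1 lower. Nme1, a nucleoside diphosphate kinase and a long-known MYC target, was at 109, 112, 121 and 116 CPM with AC220 and at 184, 184, 180 and 156 CPM with the combination (0.62 ± 0.09, adjusted p = 0.0877). It was called in the fit of 16 libraries (adjusted p = 0.0172), and it overlaps Gm20390 on its own strand, so its reads may be shared. Mrto4, a ribosome assembly factor (101 ± 9.95 to 141 ± 9.88 CPM), and C1qbp, a mitochondrial matrix protein (310 ± 22.6 to 419 ± 33.1), were higher without overlap, while Myc itself was at 597 ± 86.1 and 640 ± 163 CPM with overlap (adjusted p = 0.805). Of 80 cytosolic ribosomal protein genes 79 were positive, but their median of 0.28 was 0.18 without the first library of each group, and only 9 had no overlap (11.2%, near the 10.4% to 13.7% of genes of like length). Rpl38 was highest in combination library 1, at 902 CPM against 498 to 601 in the other 3 and 345 to 432 with AC220. The list's sum of 95400 CPM in that library stood against 66100 to 83000 in the other 3 and 63000 to 73300 with AC220.

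Chaperones of the mitochondrial matrix led the heat shock list, where 14 of 20 were positive (median 0.18) and 3 higher without overlap (15.0%). Hspe1, the lid of the mitochondrial chaperonin, was at 132, 105, 132 and 131 CPM with AC220 and at 236, 205, 190 and 149 CPM with the combination (0.64 ± 0.14, adjusted p = 0.0919). Hspd1, the chaperonin itself, whose gene overlaps the start of Hspe1 on the opposite strand, went from 416 ± 25.8 to 558 ± 44.1 CPM (0.42 ± 0.1, adjusted p = 0.0935). In the unfolded protein response list 2 of 22 were higher without overlap (9.09%): the translocon subunit Sec61b (209 ± 16.5 to 297 ± 23.1 CPM) and the secreted factor Manf (89.6 ± 8.69 to 120 ± 6.57), which overlaps several other genes. Of cell cycle genes, 5 of 42 S phase genes (11.9%) and 3 of 35 G2/M genes (8.57%) were higher without overlap and none lower, among them the cyclin-dependent kinase subunits Cks1b (246 ± 16.6 to 333 ± 27.6 CPM) and Cks2 (134 ± 7.3 to 184 ± 17.5) and thymidylate synthase, Tyms (193 ± 23.9 to 252 ± 11.8). Mki67, the common proliferation marker, was at 247 CPM in AC220 library 1 and 185 in combination library 1, and at 92.0 to 96.1 and 106 to 114 CPM in the other 3 of each group.

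Genes of the lysosome, the compartment that Lys05 targets, differed little as a group. Of 39 hydrolase genes 9 were positive, with a median of -0.09, 4 lower without overlap (10.3%) and none higher. Sgsh, a sulfamidase, was at 31.7, 35.6, 38.6 and 34.4 CPM with AC220 and at 21, 24.9, 21.5 and 28.3 CPM with the combination (-0.55 ± 0.13, adjusted p = 0.0919). Its AC220 libraries did not follow the order of the class II sums, while its combination libraries did. Ids, iduronate sulfatase, went from 13.7 ± 4.17 to 7.66 ± 0.462 CPM (adjusted p = 0.107). Ppt1, the palmitoyl-protein thioesterase reported as the molecular target of dimeric chloroquines such as Lys05, was at 782, 330, 288 and 562 CPM with AC220 and at 105, 228, 194 and 302 CPM with the combination. The groups overlapped through combination library 4 and AC220 library 3 (-1.24 ± 0.39, adjusted p = 0.148), and within each group Ppt1 ranked the libraries in the same order as the class II sums.

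Of 29 genes of the proton pump and lysosomal membrane, 19 were positive with a median of 0.12, 2 higher without overlap and 1 lower, shares of 6.9% and 3.45% near those of all genes. Atp6v0b, a subunit of the pump's membrane sector, went from 82.7 ± 3.85 to 102 ± 9.94 CPM (adjusted p = 0.146). In the list of MiT/TFE factors and the folliculin and Rag machinery of mTORC1, 3 of 17 were higher without overlap (17.6%, against 5.97% of all genes). Another 1 was lower (5.88%, near the 5.65% of all genes). The list's median was -0.18, or -0.04 with the offset. Lamtor4, which holds the Rag GTPases on the lysosome, was at 62.2, 63.8, 76.0 and 68.4 CPM with AC220 and at 101, 107, 108 and 95.9 CPM with the combination (0.61 ± 0.1, adjusted p = 0.0877, and 0.0475 in the fit of 16 libraries). Lamtor2 of the same complex went from 128 ± 5.72 to 167 ± 15 CPM (adjusted p = 0.102). Tfeb, the factor that drives lysosomal genes when mTORC1 is off, was at 31.8 ± 6.28 and 22.3 ± 3.89 CPM with overlap (adjusted p = 0.155).

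Of 15 autophagy receptor and ATG8 genes, 3 were lower without overlap (20%) and none higher, with a median of -0.10. Calcoco1, a receptor for autophagy of the endoplasmic reticulum, was at 36.8, 41.5, 34.2 and 35.2 CPM with AC220 and at 24.0, 25.0, 25.6 and 29.1 CPM with the combination (-0.51 ± 0.11, adjusted p = 0.0889). Sqstm1, the receptor p62, was at 236, 256, 226 and 242 CPM with AC220 and at 168, 196, 211 and 215 CPM with the combination (-0.28 ± 0.1, adjusted p = 0.183). Map1lc3b, whose protein LC3B coats autophagosomes, was at 370 ± 48.5 and 367 ± 14.6 CPM (-0.01 ± 0.11), and its sign turned under other scalings (0.17 with the offset). Of 29 core autophagy genes 2 were higher (6.9%, near the 5.97% of all genes) and 3 lower (10.3%, against 5.65%) without overlap. Ulk2, a kinase that starts autophagy, went from 34.9 ± 4.06 to 22.3 ± 3.03 CPM and Atg101, a subunit of that kinase complex, from 102 ± 12.7 to 135 ± 9.08 (adjusted p = 0.0888 and 0.118).

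Sterol and fatty acid synthesis genes, which rise when cells lack cholesterol, were positive in 6 of 34, with a median of -0.27 (-0.14 with the offset), 4 lower without overlap (11.8%) and none higher. Fasn, the fatty acid synthase, was at 239, 198, 211 and 213 CPM with AC220 and at 135, 172, 135 and 172 CPM with the combination (-0.49 ± 0.12, adjusted p = 0.0992). Hmgcs1, an early enzyme of the pathway, was at 29.7 ± 4.15 and 28.5 ± 7.85 CPM (adjusted p = 0.906).

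Signalling genes were lower in part. In the NF-kB list, 22 of 23 genes were not positive (median -0.40), and 3 were lower without overlap (13%). Tnfaip3, the ubiquitin editor A20 that NF-kB induces as its own brake, was at 12.9, 14.7, 10.7 and 13.4 CPM with AC220 and at 4.99, 5.12, 5.1 and 7.65 CPM with the combination (-1.18 ± 0.19, adjusted p = 0.0877). Nfkbie, an inhibitor of NF-kB that is also its target, was at 57.1, 56.0, 54.8 and 62.9 CPM with AC220 and at 32.6, 34.6, 41.3 and 40.5 CPM with the combination (-0.63 ± 0.11, adjusted p = 0.0877). The summed level of the NF-kB list was 1320, 1140, 1110 and 1190 CPM with AC220 and 780, 855, 955 and 1060 CPM with the combination, without overlap. Within the AC220 group these sums ranked the libraries as the class II sums did. Tnfaip3 and Nfkbie had their highest values in AC220 libraries 2 and 4. Within the combination group Tnfaip3 ranked the libraries as the class II sums did, and Nfkbie and the NF-kB sums did not.

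Downstream of FLT3, 7 of 13 ERK feedback genes were positive (median 0.03) and 1 was lower without overlap (7.69%). This gene, Dusp5, a phosphatase that ERK induces, was at 49.5, 73.1, 75.2 and 68.1 CPM with AC220 and at 34.8, 39.4, 44.9 and 39.4 CPM with the combination (-0.75 ± 0.15, adjusted p = 0.0877). The edgeR adjusted p of Dusp5 was 0.00437 without the first library of each group and 0.25 in the fit of 16 libraries. Its log2 fold change was -0.62 with the offset. The kinase Pim2 (277 ± 84 to 154 ± 38.2 CPM, adjusted p = 0.115) and the STAT5 target Cish (55.3 ± 16.3 to 35.3 ± 11.1, 0.202) were lower with overlap. Pim1 (39.5 ± 4.24 and 37.2 ± 12.3 CPM), Socs2 (473 ± 77.1 and 397 ± 31.2) and Dusp6 (17.7 ± 8.82 and 13.7 ± 6.26) overlapped. In the STAT5 target list 5 of 17 genes were positive, 1 was higher and 1 lower without overlap (5.88% each, near the shares of all genes), and the median of -0.13 was 0.03 with the offset. The lower one was Il2ra, the alpha chain of the interleukin-2 receptor. Il2ra was at 4.8, 7.32, 7.01 and 6.31 CPM with AC220 and at 0.69, 0.761, 2.27 and 1.85 CPM with the combination (-2.19 ± 0.39, adjusted p = 0.0877). Flt3 itself was at 492, 564, 598 and 605 CPM with AC220 and at 329, 501, 474 and 484 CPM with the combination (adjusted p = 0.229), and Kit at 192 ± 34.5 and 155 ± 12.4 CPM (0.239). Ccnd1, cyclin D1, was at 11.4 ± 6.32 and 4.64 ± 1.74 CPM with overlap (adjusted p = 0.148). The cell cycle inhibitors Cdkn1a (57.4 ± 11.8 and 56.8 ± 17.2 CPM) and Cdkn1c (1.88 ± 0.411 and 2.15 ± 0.356) had an adjusted p of 0.983 and 0.732.

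Stem cell genes gave no common direction: 16 of 31 were positive, with a median of 0.02. Hlf, a stem cell transcription factor, was at 25.0, 48.1, 13.5 and 16.9 CPM with AC220 and at 57.4, 18.6, 18.2 and 10.7 CPM with the combination. Mecom, another, was at 18.2, 26.6, 16.6 and 17.8 CPM with AC220 and at 21.4, 8.9, 9.44 and 10.1 CPM with the combination (adjusted p = 0.239). Combination library 1 was the highest of its group for both, and without the first library of each group Mecom was called lower (-1.10, adjusted p = 0.0149). Ly6a was at 124 ± 32.7 and 170 ± 44.5 CPM (adjusted p = 0.329; 0.0258 without those libraries). Lymphoid priming genes were positive in 2 of 12 (median -0.61) and immediate early genes in none of 13 (median -0.67), with overlap in all of both lists. Other lists stood near the shares of all genes or rested on few members: 4 of 30 p53 targets (13.3%), 3 of 30 glycolysis and hypoxia genes (10%, Aldoc among them), 2 of 21 cytokine receptors (9.52%) and 2 of 33 interferon response genes (6.06%) were lower without overlap, and 4 of 32 replication-dependent histone genes (12.5%), 2 of 22 NRF2 targets (9.09%) and 1 of 29 ATF4 targets (3.45%) were higher.

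Genes of marrow macrophages, which engulf dying cells, were low but higher with the combination. Of 16 genes 13 were positive (median 1.44), 8 were higher without overlap (50%) and 1 lower. C1qa, a chain of the complement protein C1q, was at 1.58, 0.645, 0.248 and 0.96 CPM with AC220 and at 9.15, 5.53, 6.85 and 3.61 CPM with the combination (2.86 ± 0.49, adjusted p = 0.0877). C1qc (1.36 ± 0.982 to 7.23 ± 1.93 CPM) and the adhesion molecule Vcam1 (2.54 ± 0.832 to 7.19 ± 1.51) separated likewise. Mertk, a receptor for engulfing dead cells, was at or under 0.0523 CPM with AC220 and at 0.321 to 0.437 with the combination. The macrophage marker Adgre1 was lower without overlap (13.3 to 15.6 against 5.57 to 12.6 CPM). The markers Mrc1 (2.88 to 7.75 against 0.796 to 4.01) and Cd163 (10.6 to 12.6 against 6.92 to 15.7) overlapped. The list summed to 75.8 to 181 CPM with AC220 and 130 to 344 with the combination, and none of its members was at 0 in all libraries. Without the first library of each group, 8 of the 16 were called higher, where 2.55% of all genes were, with C1qa at an adjusted p of 0.0147 and C1qc at 0.00217. The fit of 16 libraries called none of the 16 (adjusted p = 0.343 for C1qa and 0.327 for C1qc). Erythroid genes differed by library rather than group: their sum was 2960 CPM in combination library 1 and 416 to 1110 in the other 7.

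Lys05 alone, compared with vehicle in LSK cells, shares no library with this comparison. None of 15730 genes was called there by edgeR in the fit of 16 LSK libraries (2718 at an unadjusted p under 0.05). The lists that were higher with the combination over AC220 had medians under Lys05 alone of 0.02 (complexes II to V), -0.01 (complex I), 0.10 (mitochondrial ribosome), 0.19 (proteasome), 0.31 (primary granule) and -0.19 (ribosomal protein), against -0.02 over all genes. The marrow macrophage, class II and dendritic cell medians were 0.80, -0.40 and -1.05, with the same sign as with AC220 present. Whether adding Lys05 acts differently with and without AC220 was tested gene by gene as an interaction in the 16 LSK libraries. It called none of 15730 genes (0%) in edgeR, with 1645 at an unadjusted p under 0.05, none in limma voom and 118 in DESeq2 (113 of them positive). The biological spread shared by those 16 libraries, a coefficient of variation of 0.475, was wider than the 0.277 of the 8 compared here. In that fit, the log2 difference of H2-Ob was -0.34 for Lys05 over vehicle and -1.34 for the combination over AC220, that of Aldoc -0.06 and -1.02, and that of Ndufa4 0.08 and 0.82.

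In GMP, granulocyte-macrophage progenitors sorted from the same 4 treatments, the combination against AC220 gave 63 called genes of 15546 (29 higher, 34 lower). For this, the GMP libraries of AC220 and the combination were fitted together with the 8 LSK libraries, sharing their spread. The count therefore comes from another model than that of the 8 LSK libraries alone, and the counts do not compare the size of the effects. H2-Ob was among the genes called lower in GMP, with a log2 fold change of -7.05 ± 0.87 (adjusted p = 0.00811). This was far larger than its -1.38 in the fit of the 8 LSK libraries, and its levels in GMP are not given here. The difference between LSK and GMP was 5.70 for H2-Ob (edgeR adjusted p = 0.109). Aldoc had a log2 fold change of 2.35 ± 1.70 in GMP (adjusted p = 0.451). Class II and dendritic cell lists were lower there too, with medians of -2.13 and -1.72, and the macrophage list higher, at 1.93. The nuclear mitochondrial lists had negative medians in GMP, -0.33 for complexes II to V, -0.34 for complex I and -0.26 for the mitochondrial ribosome, and the primary granule list had -0.32, against 0.06 over all genes. The log2 difference between the GMP groups was -0.04 for Prtn3 and -0.01 for Ms4a3 (adjusted p = 0.965 and 1). The difference between LSK and GMP passed for none of 15546 genes (0%) in edgeR and in limma voom, with 2183 at an unadjusted p under 0.05 in edgeR, and for 563 in DESeq2.

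**Figure D5:**
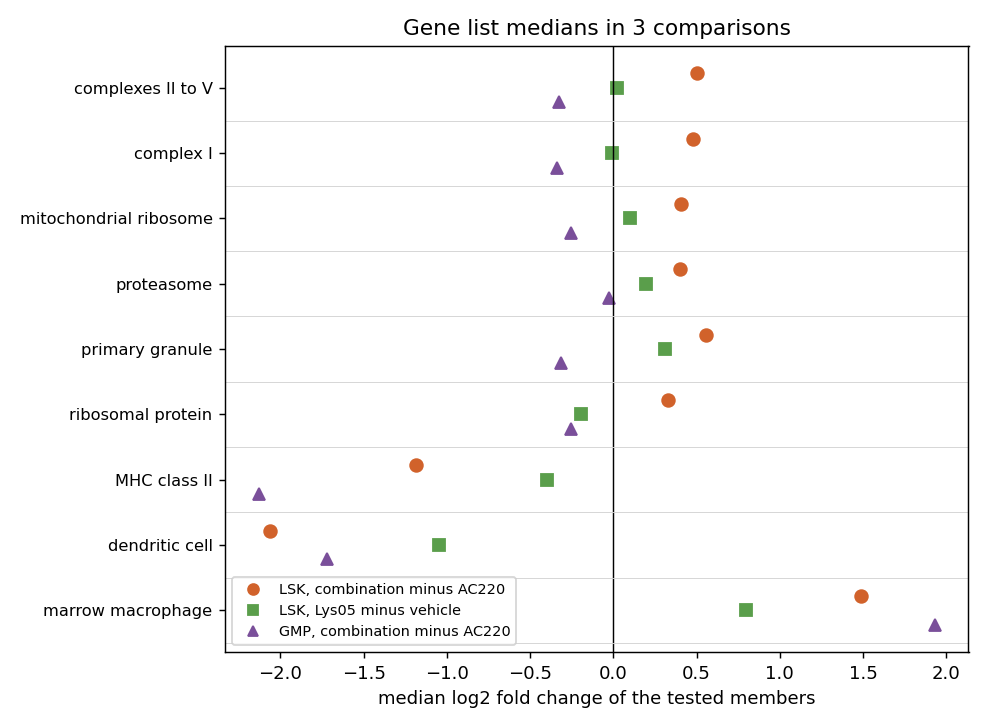
Median log2 fold change of the tested members of 9 lists in LSK for the combination minus AC220 (circles) and for Lys05 minus vehicle (squares), both from the fit of 16 LSK libraries, and in GMP for the combination minus AC220 (triangles). The 3 comparisons share no library. Class II, dendritic cell and macrophage lists have the same sign in all 3, and the nuclear mitochondrial lists are positive in the first and negative in GMP.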

How the data were processed

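RNA of sorted LSK and GMP cells was measured in 32 libraries, 4 in each of 8 groups. The authors deposited 1 table of raw counts per Ensembl gene. The submitters' processing notes name STAR 2.7.3a and HTSeq 0.11.2, beside bcl2fastq 2.20 and Trim Galore 0.6.5, with GRCm38 as the genome, and the strand setting is not given in the sources used here, so opposite-strand genes may share reads. Of 56246 gene rows 55230 were named from GENCODE M21, and 5 summary lines (15.2% to 24.0% of counts in these 8 libraries) were left out. The 8 libraries were fitted together in edgeR 4.0.16 under R 4.3.3 (filterByExpr, TMM, robust quasi-likelihood, two-sided, Benjamini-Hochberg over all genes, called under 0.05), with DESeq2 1.42.0 and limma 3.58.1 as alternatives; the code was tested on simulated data. CPM use the TMM-scaled library size. Replicates differed beyond counting noise (chi-square per gene 35.4 to 216), and the labels do not say that they are separate animals, so p-values measure the spread between these samples.

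The comparison, the 51 gene lists and the named genes were chosen with earlier results of these data known. Named genes are called genes without overlap whose mean log2 CPM was 2 or more (up to 8 per direction), the 4 members with the lowest p in each list described, and 21 genes followed whatever their result; a few genes under this rule are left out of the text. A further 9 were chosen after their values were seen. Lists got no test.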

Additional observations from a re-analysis of the deposited data

Results flagged for a closer look

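Within groups of 4, 178 sets of values were searched for a library far from the other 3 (Dixon's ratio), and 18 were found, of which 7 were in combination library 1. Chance alone gives about 1 in 20 groups. In combination library 1 the low values were Prtn3 at 990 CPM (nearest other library 1650), Hmgcs1 at 16.8 (31.4) and Flt3 at 329 (474), and the high ones Mki67 at 185 CPM (114), Hlf at 57.4 (18.6), Mecom at 21.4 (10.1) and the share of reads outside named features at 24.0% (17.1%).

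In the other combination libraries, Mrpl22 at 89.4 CPM (nearest 75.8), Psma4 at 277 (243) and Cks1b at 374 (322) were high in library 2. In library 4, Nme1 at 156 CPM (180) was low, and Tnfaip3 at 7.65 (5.12) and Ccnd1 at 7.24 (3.93) were high. In AC220 library 1, Mki67 at 247 CPM (96.1) was high and Ly6a at 74.5 (140) low. In AC220 library 2, Hp at 51.5 CPM (66.5) and Hspe1 at 105 (131) were low and Mecom at 26.6 (18.2) was high.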

How the results depend on the processing

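The 2 called genes became 1104 in DESeq2 (509 higher, 595 lower; 2031 genes without an adjusted p), 1308 in limma voom (671 and 637), 46 with no filter on low counts (22 and 24), 56 with all 16 LSK libraries (54 and 2) and 703 without the first library of each group (383 and 320, chosen after seeing the data), so the share of higher genes ran from 0% to 96.4%. RLE factors and both length and GC offsets kept the 2. Leaving out 1 library gave 0 to 43 genes, 0 to 28 higher and 0 to 15 lower. Counts of 43 came without combination library 1 (28 higher, 15 lower), 7 without AC220 library 1 (2 and 5), 1 without combination library 4, and 0 without any of the other 5. The interaction gave 118 genes in DESeq2 and 0 under each other setting. The difference between LSK and GMP gave 563 in DESeq2 and 0 to 1 when a library was left out, the 1 without combination library 1. The short-transcript difference was 0.881 points by the longest transcript (exact permutation p = 0.257) and 1.53 to 2.13 with a library left out (p = 0.0571 without each combination library). The cause of these shifts was not tested, beyond the smaller number of samples when libraries are left out. No called gene turned its sign; Map1lc3b, Hmgcs1, Myc, Pim1, Cdkn1a, Mki67 and Hlf, all near 0, did under some settings. No paired analysis was possible because the labels carry no replicate numbers. Genes near 1 CPM rest on about 36.4 counts in the shallowest library.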

Other observations

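The 9 genes outside the lists described here were chosen after their values were seen, because they had some of the smallest p-values. None was called by edgeR with all 8 libraries. Most of the 9 were lower with the combination, but of the 318 genes with an edgeR adjusted p under 0.1, 182 were higher and 136 lower. The direction of the 9 therefore does not describe the genes with small p-values as a whole. Timp3, an inhibitor of matrix metalloproteinases, was at 16.8, 28.9, 23.6 and 23.4 CPM with AC220 and at 9.92, 7.53, 8.28 and 6.68 CPM with the combination (log2 fold change -1.52 ± 0.19, edgeR adjusted p = 0.0544, and 0.000395 without the first library of each group). Chst2, a sulfotransferase of cell surface glycans, had log2 fold change -1.30 ± 0.19 and Rasgrp1, an activator of Ras in lymphocytes, -1.45 ± 0.22. Pik3cd, the leukocyte catalytic subunit of phosphoinositide 3-kinase, was at 309, 337, 296 and 320 CPM with AC220 and at 188, 192, 222 and 241 CPM with the combination. All 4 combination libraries were below every AC220 library. Lower without overlap were also Rxra, the retinoid X receptor (-1.003 ± 0.17), Bhlhe40, a stress-responsive repressor (-1.10 ± 0.2), and Lpin1, a phosphatidate phosphatase whose gene TFEB regulates (-0.78 ± 0.12). Higher without overlap were Tomm5, a subunit of the mitochondrial import pore (0.68 ± 0.12, called in the fit of 16 libraries at an adjusted p of 0.0373), and Clec5a, a myeloid lectin receptor (1.21 ± 0.2). The edgeR adjusted p of the 8 genes other than Timp3 was 0.0877. Over the 9 genes the adjusted p ran from 6.11e-10 to 0.000219 in DESeq2 and from 0.0016 to 0.0164 in limma voom, under 0.05 for every one. In the edgeR fit of 16 libraries only Tomm5 was called, and the others ran from 0.0618 (Timp3) to 0.635 (Rxra). Without the first library of each group, Bhlhe40 was not called by edgeR (adjusted p = 0.0508). With the offset for the longest transcript, Timp3 was at -1.36, Pik3cd at -0.34 and Tomm5 at 0.51.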
